A study of Mus musculus with 9 samples.

Results

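Hepatoblasts and hepatocytes, the parenchymal cells of the liver, make most of the proteins of blood plasma. The genes described here are 36 such genes, chosen by name: 31 code for secreted proteins and 5 do not (Ttc36, Dlk1, Mt1, Mt2 and Cps1). A row was found for 34 of the 36 in a table of 13708 genes, and Apoa4 and Fetub had none. Their transcripts were measured by bulk RNA-seq in fetal liver (FL) macrophages, sorted at embryonic day E15.5 as CD45+ F4/80hi CD11blow cells from 5 Mrc1Cre Xpr1fl/fl and 4 Xpr1fl/fl samples. In both groups loxP sites flank exon 2 of both alleles of Xpr1, a phosphate exporter gene, and the Cre of the first group is made from the Mrc1 locus, which codes for the mannose receptor CD206. CD206 is also made by liver sinusoidal endothelial cells, so Cre is not limited to macrophages in these embryos. The gate does not select hepatocytes, which lack CD45. How many embryos went into each sample is not given in the sources used here, so p-values measure the spread between these samples only.

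In the fetus, albumin (Alb) and alpha-fetoprotein (Afp) are the main proteins that the liver puts into plasma, and both come from the same gene family. The other secreted products carry iron, thyroid hormone, retinol and lipids, clot blood or inhibit proteases. Dlk1 is a surface protein of hepatoblasts that is also made in other embryonic tissues, and the metallothioneins Mt1 and Mt2 bind zinc and copper in most cell types. Expression in liver cells is known to depend on transcription factors such as HNF4 and C/EBP, and that of the metallothioneins on MTF1, which binds metal response elements.

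Alb lies on the plus strand of chromosome 5 of GRCm39, from 90608647 to 90624696, and Afp lies next to it, from 90638584 to 90656766. Mt2 (94898819 to 94900207) and Mt1 (94905710 to 94906955) are neighbours on the plus strand of chromosome 8. The promoters of both pairs are shown because Alb and Afp gave nearly equal changes and Mt1 and Mt2 unequal ones. They are the 250 bases before the RefSeq start site, from a table of the older build GRCm38.p6, with coordinates of that build (chr5:90460620-90460869 for Alb, chr5:90490464-90490713 for Afp, chr8:94178839-94179088 for Mt1 and chr8:94172368-94172617 for Mt2, all plus strand). Capitals mark motifs found on either strand: the CCAAT box CCAAT in Alb and Afp, and, in Mt1 and Mt2, the core of the metal response element, TGCACNC or TGCGCNC.
Alb: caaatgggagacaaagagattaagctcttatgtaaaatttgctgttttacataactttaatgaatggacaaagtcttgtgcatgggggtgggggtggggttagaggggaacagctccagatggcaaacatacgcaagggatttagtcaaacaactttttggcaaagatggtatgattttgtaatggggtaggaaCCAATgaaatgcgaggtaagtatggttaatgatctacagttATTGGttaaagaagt
Afp: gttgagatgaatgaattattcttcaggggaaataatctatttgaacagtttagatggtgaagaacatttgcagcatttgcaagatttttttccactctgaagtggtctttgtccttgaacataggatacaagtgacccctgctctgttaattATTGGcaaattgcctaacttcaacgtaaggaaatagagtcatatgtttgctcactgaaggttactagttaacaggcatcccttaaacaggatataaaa
Mt1: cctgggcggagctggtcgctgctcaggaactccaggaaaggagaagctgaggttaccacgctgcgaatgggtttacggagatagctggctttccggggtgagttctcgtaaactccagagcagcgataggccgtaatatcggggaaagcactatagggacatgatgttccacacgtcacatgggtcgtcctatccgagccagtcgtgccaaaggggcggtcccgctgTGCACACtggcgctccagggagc
Mt2: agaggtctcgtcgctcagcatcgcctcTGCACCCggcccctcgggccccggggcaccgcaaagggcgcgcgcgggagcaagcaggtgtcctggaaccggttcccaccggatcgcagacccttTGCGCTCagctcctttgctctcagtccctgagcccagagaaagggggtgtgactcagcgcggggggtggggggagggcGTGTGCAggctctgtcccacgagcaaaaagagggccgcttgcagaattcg

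The Alb promoter held 2 CCAAT boxes, and the Afp promoter held 1. Within the windows shown, the Mt1 promoter held 1 metal response core and the Mt2 promoter 3. The windows depend on the RefSeq start site used, and cores outside them were not counted. The counts therefore do not show which metallothionein gene has more cores. The table had a promoter for 24 of the 29 secreted protein genes with a row. CCAAT was found in 10 of these 24 (41.7%) against 34.5% of all 27025 promoters of this length, and the metal response core in 8.33% against 21.3%. Among the 10165 promoters of genes in the table the shares were 36.9% and 29.3%. Of the 10 with CCAAT, 4 were the Serpina1 genes, which are close copies of each other. These matches describe letters in a window and were not tested for binding.

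Of the 34 genes with a row, 33 were lower in Mrc1Cre Xpr1fl/fl samples and 0 were higher. All 34 had passed the filter on low values, which asked for 10 normalized counts or more in 4 samples or more. Changes are log2 fold changes of normalized counts after adding 1, Mrc1Cre Xpr1fl/fl against Xpr1fl/fl, tested with limma and adjusted by the Benjamini-Hochberg method over 13594 genes at a threshold of 0.05. The median log2 fold change of the 34 was −1.07, and the range was −1.52 (Serpina1d) to −0.67 (Trf). Over all genes tested 21.6% were lower and 21.5% higher, and the median change was 0.005. After scaling to the 75th percentile, the numbers of all genes higher and lower went from 2926 and 2939 to 1999 and 3707, and 33 of the 34 were again lower. In 31 of the 34 every Mrc1Cre Xpr1fl/fl sample was below every control, against 17.5% of all genes, and Itih3, Serpinc1 and Cps1 overlapped. In bulk samples, fewer cells of a type and less RNA per cell cannot be told apart.

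The column names of the table carry 1 of 3 dates, whose meaning is not given in the sources used here. Mrc1Cre Xpr1fl/fl samples 1 to 4 had the latest date, Mrc1Cre Xpr1fl/fl sample 5 and Xpr1fl/fl samples 1 to 3 the earliest, and Xpr1fl/fl sample 4 stood alone. With the date as a further term of the model (the date-adjusted fit), 3 of the 34 were lower past the threshold, against 4.54% of all genes: Afp, Apoa1 and Mt2. Here 1 Mrc1Cre Xpr1fl/fl sample was set against 3 controls, and the lone sample was assumed to vary like the others. All 34 changes were negative, 21 had an unadjusted p under 0.05 (13.1% of all genes were lower at that level), and the median log2 fold change was −0.55. Mrc1Cre Xpr1fl/fl sample 5 was below each of the 3 controls of its date for 32 of the 34 (all but Itih3 and Cps1), against 33.2% of all genes. Its normalized counts were 52.9% (Mt2) to 88.8% (Itih3) of the mean of these controls, with a median of 67.6%. Without Xpr1fl/fl sample 4, 33 of the 34 were lower, against 19.6% of all genes, and the median was −0.85.

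**Figure D1:**
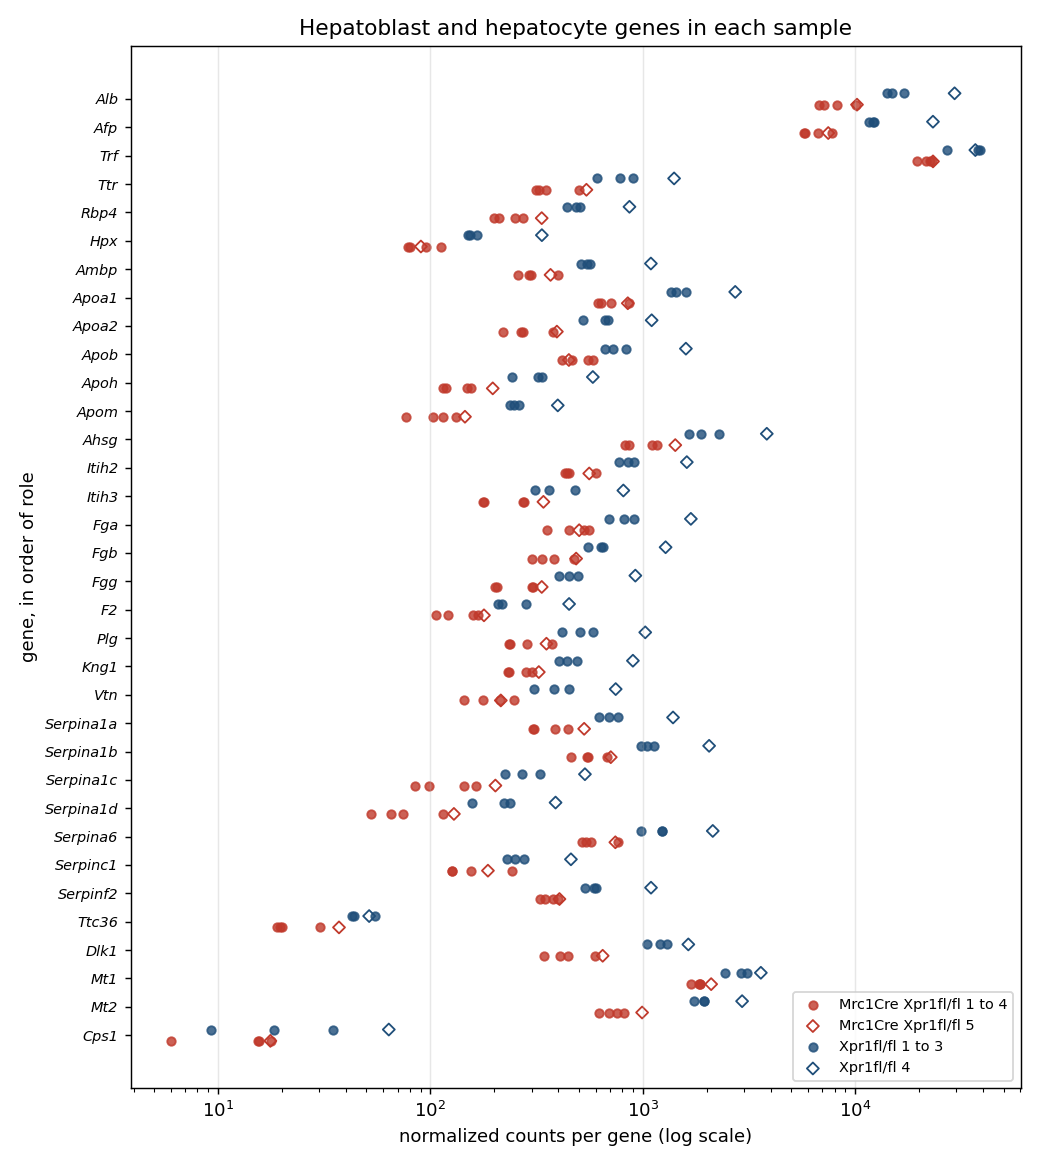
Normalized counts of the 34 genes in each sample on a log axis, with Mrc1Cre Xpr1fl/fl in red and Xpr1fl/fl in blue; open diamonds are Mrc1Cre Xpr1fl/fl sample 5 and Xpr1fl/fl sample 4. For 31 genes all red points lie left of all blue points, and for 32 genes the rightmost blue point is Xpr1fl/fl sample 4.

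Among the albumin family genes, both were lower, by nearly the same amount. Alb had 10069, 6770, 7151, 8186 and 10199 normalized counts in Mrc1Cre Xpr1fl/fl samples 1 to 5, and 14867, 14150, 16890 and 29386 in Xpr1fl/fl samples 1 to 4. The groups did not overlap, and control 4 had the most, well apart from the other 3. The log2 fold change of Alb was −1.11 ± 0.20 (SE), with a limma adjusted p of 0.00135. After date adjustment it was −0.58 (limma adjusted p = 0.0853). Afp had 7795, 5789, 5759, 6704 and 7469 normalized counts in the Mrc1Cre Xpr1fl/fl samples and 12321, 12190, 11651 and 23242 in the controls. Control 4 again stood far above the other 3, which lay close together. Its log2 fold change was −1.09 ± 0.19 (SE, limma adjusted p = 0.000848), and it was −0.69 after date adjustment (limma adjusted p = 0.023).

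The ratio of Alb to Afp did not change detectably. It was 1.26 ± 0.07 (SD, n = 5) in Mrc1Cre Xpr1fl/fl and 1.27 ± 0.13 (SD, n = 4) in Xpr1fl/fl samples. The log2 difference was −0.011 ± 0.080 (SE), with p = 0.881 in a two-sided exact permutation test over 126 regroupings and 0.881 after adjustment over 2 such ratios. The smallest p this test can give is 0.00794. Control 3 had the highest ratio, 1.45, and control 2 the lowest, 1.16.

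Of the 5 carrier proteins, all were lower, and the iron carrier transferrin (Trf) differed from the others in level and in pattern. Trf (chromosome 9, 103081200 to 103107814, minus strand) had 21587, 19651, 22913, 22484 and 23250 normalized counts in Mrc1Cre Xpr1fl/fl and 38014, 27161, 38738 and 36807 in Xpr1fl/fl samples. The lowest control was control 2, and control 4 was not above the others. Its log2 fold change of −0.67 ± 0.10 (SE, limma adjusted p = 0.000395) was the smallest fall among the 33 genes that passed. Per kb of canonical transcript, Trf had a mean level of 13683 normalized counts in controls, above Alb (9223) and Afp (7157).

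Transthyretin (Ttr), which carries thyroid hormone and the retinol carrier Rbp4, had 313 to 543 normalized counts in Mrc1Cre Xpr1fl/fl samples and 608 to 1404 in controls (log2 fold change −1.15). Rbp4 itself had 199 to 334 and 439 to 865 (−1.15). Hemopexin (Hpx), which binds free heme, was at 78.6 to 112 and 150 to 335 (−1.06). Ambp, which codes for the heme-binding alpha-1-microglobulin and the protease inhibitor bikunin, was at 259 to 397 and 513 to 1092 (−1.02). None of these ranges overlapped between the genotypes, and in all 4 genes control 4 was the highest. Limma adjusted p-values for the 5 carriers lay between 0.000395 and 0.00357, and 0 of the 5 passed after date adjustment.

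The 5 apolipoprotein genes with a row were all lower, with a median log2 fold change of −1.25. Apoa1, the main protein of high-density lipoprotein, had 865, 636, 615, 707 and 850 normalized counts in Mrc1Cre Xpr1fl/fl and 1439, 1358, 1600 and 2724 in Xpr1fl/fl samples. Every control was above every Mrc1Cre Xpr1fl/fl sample. The log2 fold change of Apoa1 was −1.23 ± 0.19 (SE, limma adjusted p = 0.000431), and −0.78 after date adjustment (limma adjusted p = 0.0268). Apoa2, its partner in the same particle, had 220.3 to 394 normalized counts in Mrc1Cre Xpr1fl/fl and 524 to 1101 in Xpr1fl/fl samples (log2 fold change −1.25). Apom, which carries sphingosine-1-phosphate, was at 77.1 to 145 and 237 to 398 (−1.31), and Apoh, a phospholipid-binding plasma protein, at 115 to 196 and 241 to 582 (−1.28). Apob, the structural protein of low-density lipoprotein, was at 416 to 585 and 662 to 1596 and had the smallest fall of the group (−0.87).

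The 3 fetuin and inter-alpha-inhibitor genes with a row were lower. Ahsg (fetuin-A, which binds calcium phosphate) had 1169, 862, 825, 1100 and 1422 normalized counts in Mrc1Cre Xpr1fl/fl and 1871, 1654, 2284 and 3836 in Xpr1fl/fl samples. Its groups did not overlap, with a log2 fold change of −1.11 ± 0.23 (SE, limma adjusted p = 0.00265). Itih2 and Itih3, heavy chains that are linked to bikunin, gave −1.01 and −0.92. Itih2 was at 431 to 601 normalized counts in Mrc1Cre Xpr1fl/fl and 774 to 1612 in Xpr1fl/fl samples. Itih3 overlapped, since Mrc1Cre Xpr1fl/fl sample 5 (340.5) was above control 2 (309.3), and it had the largest limma adjusted p of the secreted protein genes, 0.0196.

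All 7 genes of clotting and of clot breakdown were lower, with log2 fold changes between −1.18 and −0.92. The fibrinogen chain genes Fgg, Fga and Fgb lie next to each other on chromosome 3, between 82915030 and 82957170. Fga had 556, 449, 356, 530 and 502 normalized counts in Mrc1Cre Xpr1fl/fl and 905, 695, 815 and 1684 in Xpr1fl/fl samples. Fgb ranged from 302 to 485 and from 553 to 1280, and Fgg from 201 to 334 and from 402 to 922. The changes of the 3 chains were close to each other, −1.03 (Fga), −0.92 (Fgb) and −1.02 (Fgg), each with an SE of 0.22 to 0.24. Prothrombin (F2) was at 106 to 179 and 208 to 449.7 normalized counts (−0.94), and plasminogen (Plg), the precursor of the enzyme that dissolves clots, at 233 to 374 and 415 to 1027 (−1.03). Kininogen (Kng1), the precursor of bradykinin, was at 232 to 324 and 401 to 898 (−0.95), and the adhesive plasma protein vitronectin (Vtn) at 145 to 248 and 306 to 745 (−1.18). None of the 7 overlapped between the genotypes, and control 4 had the most of each. After date adjustment 0 of these 7 genes passed.

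All 7 serpin genes were lower. Serpina1a to Serpina1d code for alpha-1-antitrypsins, lie within one cluster on chromosome 12, and share much of their sequence, so the division of reads among them is uncertain. The most abundant, Serpina1b, had 680, 458, 548, 550 and 707 normalized counts in Mrc1Cre Xpr1fl/fl and 1045, 985, 1134 and 2053 in Xpr1fl/fl samples (log2 fold change −1.10 ± 0.20, SE). Serpina1a gave −1.09, Serpina1c −1.28 and Serpina1d −1.52, and the SE was 0.20 for Serpina1b and 0.30 for Serpina1d, the least abundant. Serpina1d had 52.4 to 129 normalized counts in Mrc1Cre Xpr1fl/fl and 156 to 388 in Xpr1fl/fl samples. Serpina6, the carrier of corticosteroids, was at 517 to 767 and 976 to 2136 (−1.10), and Serpinf2, which inhibits plasmin, at 327 to 405 and 534 to 1093 (−0.87). Antithrombin (Serpinc1) had 243, 127, 126, 155 and 187 normalized counts in Mrc1Cre Xpr1fl/fl and 229, 249, 275 and 459 in Xpr1fl/fl samples. Its groups overlapped through Mrc1Cre Xpr1fl/fl sample 1, and its log2 fold change was −0.84 ± 0.24 (SE, limma adjusted p = 0.0138).

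Of the 5 genes whose products are not secreted plasma proteins, 4 were lower. Mt2 had 692, 622, 816, 754 and 993 normalized counts in Mrc1Cre Xpr1fl/fl and 1946, 1942, 1743 and 2935 in Xpr1fl/fl samples. No sample overlapped, and the log2 fold change was −1.45 ± 0.16 (SE, limma adjusted p = 5.74e-05), or −0.92 after date adjustment (limma adjusted p = 0.00616). Mt1 had 1836, 1682, 1861, 1865 and 2098 normalized counts in Mrc1Cre Xpr1fl/fl and 3110, 2907, 2442 and 3597 in Xpr1fl/fl samples. It was lower by less, with a log2 fold change of −0.68 ± 0.10 (SE, limma adjusted p = 0.000339). The sum of Mt1 and Mt2 over Alb was 0.318 ± 0.046 (SD, n = 5) in Mrc1Cre Xpr1fl/fl and 0.288 ± 0.062 (SD, n = 4) in Xpr1fl/fl samples. The log2 difference was 0.15 ± 0.19 (SE), with p = 0.381 in the exact permutation test (0.762 after adjustment). This sum joins 2 genes that went opposite ways relative to Alb. The mean ratio to Alb in Mrc1Cre Xpr1fl/fl was 1.32 times that in Xpr1fl/fl samples for Mt1 and 0.788 times for Mt2. Both ratios overlapped between the genotypes and were not tested singly.

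Dlk1 had 594, 409, 343.5, 442 and 647 normalized counts in Mrc1Cre Xpr1fl/fl and 1207, 1043, 1305 and 1638 in Xpr1fl/fl samples. The lowest control had more than any Mrc1Cre Xpr1fl/fl sample, and the log2 fold change was −1.43 ± 0.19 (SE, limma adjusted p = 0.000155). After date adjustment it was −0.87 (limma adjusted p = 0.0572). Ttc36, a liver and kidney protein with tetratricopeptide repeats, was low, at 18.9 to 37.1 and 42.6 to 54.8 normalized counts (−0.96). Cps1, the first enzyme of the urea cycle, was lowest of all. It had 15.4, 6.03, 15.7, 17.8 and 17.6 normalized counts in Mrc1Cre Xpr1fl/fl and 18.4, 9.30, 34.8 and 63.7 in Xpr1fl/fl samples, which overlapped. Its log2 fold change of −0.83 ± 0.51 (SE) did not pass the threshold (limma adjusted p = 0.211).

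**Figure D2:**
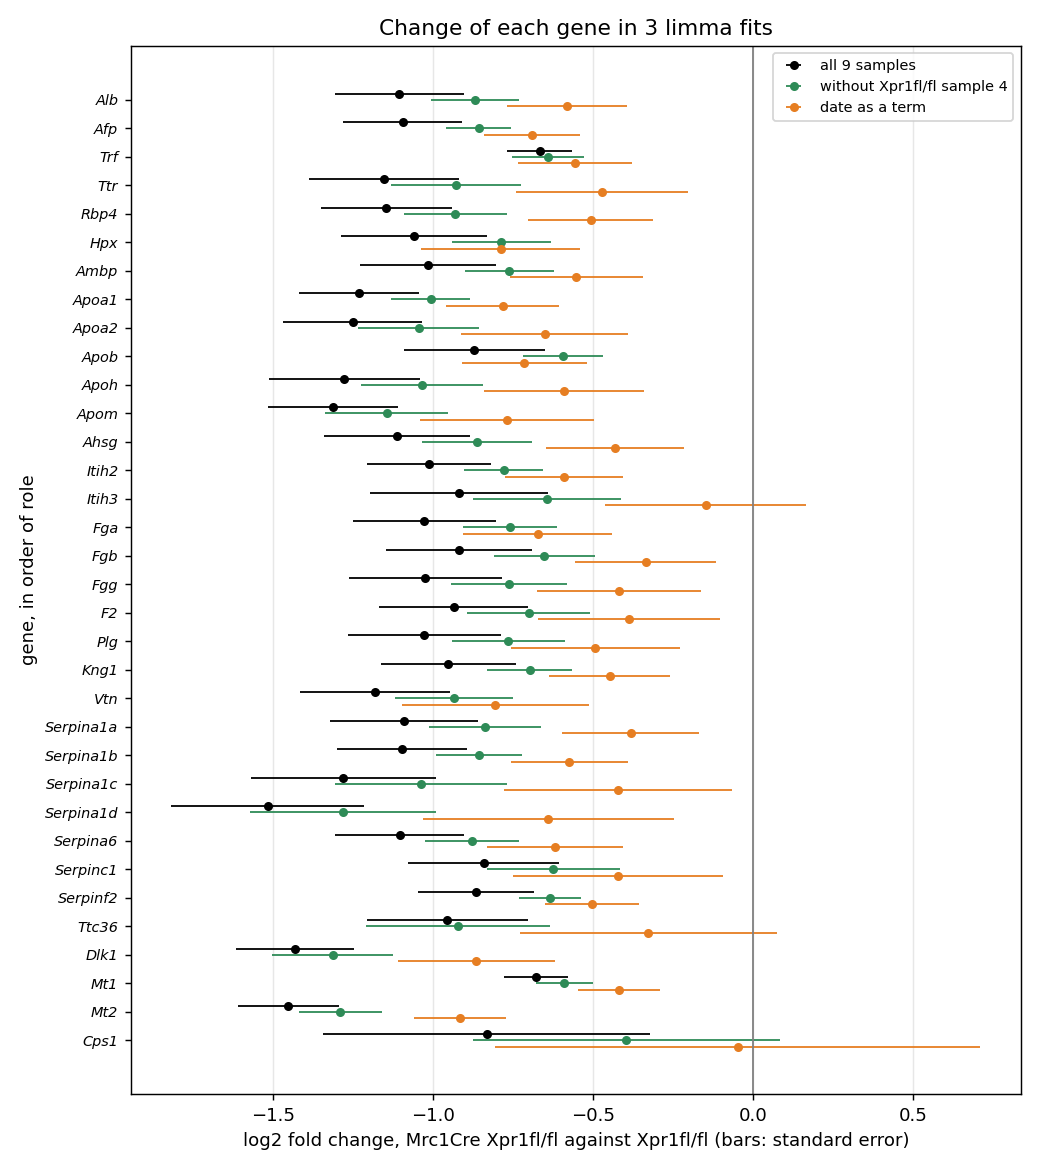
Log2 fold change of each of the 34 genes (horizontal axis, Mrc1Cre Xpr1fl/fl against Xpr1fl/fl, bars show the standard error) from limma with all 9 samples in black, without Xpr1fl/fl sample 4 in green and with date adjustment in orange. With all 9 samples the values run from −1.52 to −0.67, and after date adjustment from −0.92 to −0.05.

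The log2 fold changes of the 34 genes had an SD of 0.20, and 29 of the 34 lay within 0.25 of the median. The share of all genes that lay this close to a median is not given here. The count therefore does not set these genes apart. After date adjustment the SD was 0.19, around a smaller median fall (−0.55). Without date adjustment, Trf and Mt1 fell by less than these 29 genes, and Mt2, Dlk1 and Serpina1d by more. Serpina1d, for which the division of reads among gene copies is uncertain, had an SE of 0.30, whereas Trf and Mt1 had an SE of 0.10 each. These distances between genes were not tested.

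Control 4 set much of the spread among controls. It was the highest control for 32 of the 34 genes, against 27.8% of all genes, and at least 1.5 times the mean of the other 3 controls for 30 of the 34, against 4.63%. The median excess was 1.92 times. It was 1.92 for Alb and 1.93 for Afp, and it ranged from 1.60 (Apom) to 2.16 (Apob) over the secreted protein genes other than Trf. Trf (1.06 times), Ttc36 (1.09), Mt1 (1.28) and Dlk1 (1.38) stayed under 1.5 times, Mt2 was at 1.56, and Cps1, with few counts, at 3.06. Over all genes tested, 629 were at least 1.5 times higher in control 4, and 30 of them belong to the set and 34 to a list of other hepatocyte genes.

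Among the Mrc1Cre Xpr1fl/fl samples, sample 2 was the lowest for 18 of the 34 genes and sample 3 for 15, whereas sample 5 was the highest for 22 and sample 1 for 11. The shares of all genes with these ranks are not given here, so the ranks do not set these genes apart. Sample 5 had a median of 1.28 times the mean of samples 1 to 4, from 0.892 (Apob) to 1.68 (Serpina1d).

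By the median over genes, the spread within each genotype was smaller after division by Alb of the same sample, a denominator that the ratios share. For Trf and Mt1 the spread relative to the mean was larger after division, in both genotypes. The median coefficient of variation of the 34 genes was 20.9% in Mrc1Cre Xpr1fl/fl and 38.5% in Xpr1fl/fl samples. For the ratio to Alb it was 9.86% and 9.39% over the other 33 genes. Afp had 77.4, 85.5, 80.5, 81.9 and 73.2 normalized counts per 100 of Alb in Mrc1Cre Xpr1fl/fl and 82.9, 86.1, 69.0 and 79.1 in Xpr1fl/fl samples, with no order between the genotypes. Serpina1b had 6.72 to 7.66 and 6.71 to 7.03, and Ahsg 11.5 to 13.9 and 11.7 to 13.5. In all, the ratio overlapped between the genotypes for 32 of the 33 genes. Serpinc1 was the exception, at 1.77 to 2.41 per 100 of Alb in Mrc1Cre Xpr1fl/fl and 1.54 to 1.76 in Xpr1fl/fl samples. Its groups nearly touched, at 1.766 in Mrc1Cre Xpr1fl/fl sample 3 and 1.763 in control 2. The value of 2.41 was that of Mrc1Cre Xpr1fl/fl sample 1. For Dlk1 the overlap came from control 4 alone. The share of all genes whose ratio to Alb overlapped is not given here, so the count does not set these genes apart. The mean ratio in Mrc1Cre Xpr1fl/fl was 0.754 (Serpina1d) to 1.32 times (Trf) that in Xpr1fl/fl samples, with a median of 1.03.

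The range of the ratio to Alb over the 9 samples, as the highest over the lowest, was widest for Cps1 (3.33 times), the gene with the fewest counts, and Trf (2.56). Mt1 (2.13), Ttc36 (2.08), Serpina1d (2.05), Mt2 (2.00), Apob (1.74) and Dlk1 (1.69) came next. Trf had 214, 290.2, 320.4, 275 and 228 normalized counts per 100 of Alb in Mrc1Cre Xpr1fl/fl and 256, 192, 229 and 125 in Xpr1fl/fl samples. Its lowest ratio was in control 4, the sample with the most Alb. The Mt1 ratio was also lowest in control 4 (12.2 per 100 of Alb) and reached 20.9 in control 1 and 26.0 in Mrc1Cre Xpr1fl/fl sample 3. Dlk1 had 8.12, 7.37 and 7.73 per 100 of Alb in controls 1 to 3 and 5.58 in control 4, against 4.80 to 6.35 in Mrc1Cre Xpr1fl/fl samples. Ttc36 had 0.295 to 0.325 in controls 1 to 3 and 0.175 in control 4.

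**Figure D3:**
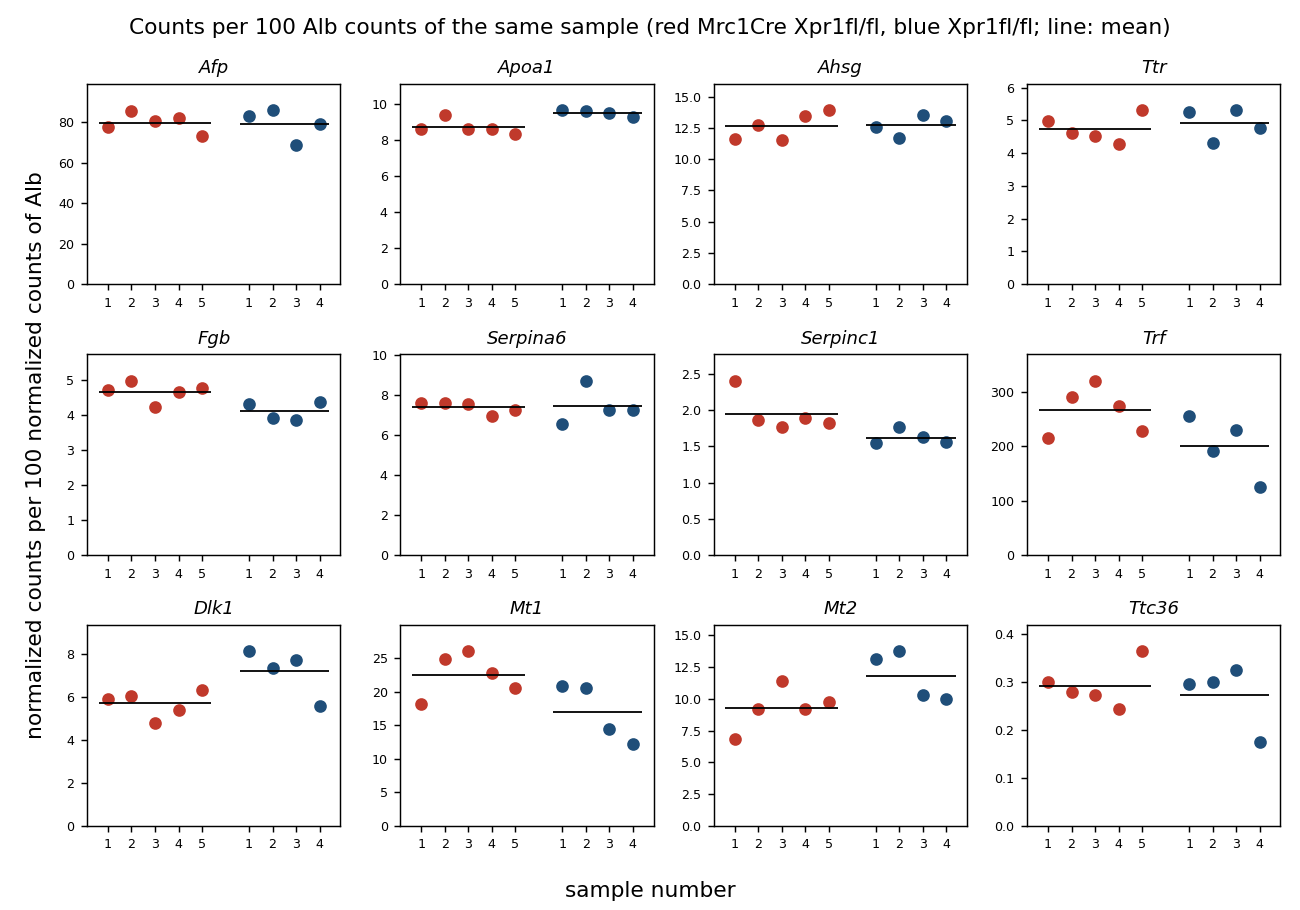
Normalized counts of 12 genes per 100 normalized counts of Alb in the same sample, with Mrc1Cre Xpr1fl/fl samples 1 to 5 in red, Xpr1fl/fl samples 1 to 4 in blue and lines at the group means. Afp, Apoa1, Ahsg, Ttr, Fgb and Serpina6 vary little between samples. Trf, Dlk1, Mt1, Mt2 and Ttc36 vary more and have their lowest control value in Xpr1fl/fl sample 4, as does Apoa1 by a small margin.

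All the genes of the set together took 0.150% to 0.199% of normalized counts in Mrc1Cre Xpr1fl/fl and 0.275% to 0.460% in Xpr1fl/fl samples. Without Trf, the secreted protein genes took 0.0711% to 0.102% and 0.152% to 0.299%. Of 18 macrophage genes, which include Csf1r and Adgre1 (F4/80), all had a row and none was at 0 in any sample, and they took 1.40% to 1.61% and 1.73% to 2.14%. By limma 7 of them were lower and 4 higher, against 21.6% and 21.5% of all genes tested. Their log2 fold changes ran from −1.43 to 0.85. The list also holds identity genes of liver macrophages, so its sum does not measure macrophage content. Xpr1 itself had 1074 to 1285 normalized counts in Mrc1Cre Xpr1fl/fl and 1781 to 2239 in Xpr1fl/fl samples, and reads outside exon 2 still count towards it. The total was between 26942921 and 28309443 normalized counts per sample, which the normalization sets, so the depth is unknown.

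Most measured genes of a second list of 89 hepatocyte genes were lower too. The list had 62 genes with a row, of which 61 were tested. By limma 49 of these fell and 0 rose. The median log2 fold change of the 61 was −1.02, and the range was −3.56 to 0.64, wider than in the set. After date adjustment 7 were lower, and without control 4 there were 37 lower and 1 higher of 59 tested. Over all genes the lower share was 21.6%, 4.54% after date adjustment and 19.6% without control 4. Among the most abundant, Igf2, a fetal growth factor (−1.31), Apoc1, an apolipoprotein (−1.76), and Scd1, a fatty acid desaturase (−1.18), were lower. Ahcy, of the methionine cycle, did not pass (−0.09, limma adjusted p = 0.288). Igf2 and Apoc1 were also lower after date adjustment (limma adjusted p = 0.0366 and 0.016). Which cells of the sort made the transcripts of this list was not tested. The median ratio of control 4 to the other controls was 1.56 over this list and 1.94 over the secreted protein genes.

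Of 27 transcription factors known from hepatocytes, 20 had a row, and Foxa1, Foxa2, Onecut1, Nr1i3 and Tbx3 were among those without one. By limma 11 were lower and 2 higher, and after date adjustment 2 lower and 0 higher. The shares over all genes tested were 21.6% lower and 21.5% higher, and 4.54% and 4.24% after date adjustment. Hnf4a, a main regulator of hepatocyte genes, had 81.9, 56.3, 40.5, 83.9 and 91.2 normalized counts in Mrc1Cre Xpr1fl/fl and 144, 171, 180 and 251 in Xpr1fl/fl samples (log2 fold change −1.42), and control 4 was again the highest. Prox1, of hepatoblasts and lymphatic endothelium, gave −1.38 (limma adjusted p = 0.000211) and Cebpa, which myeloid cells also use, −0.70 (limma adjusted p = 0.000379), and these were the 2 that passed after date adjustment. Cebpa was not high in control 4, at 0.733 times the mean of the other controls. Creb3l3 (−1.10), Gata4 (−1.18), Hhex (−0.26), Nr1h4 (−1.60), Nr1i2 (−1.07), Nr2f2 (−1.78), Nr5a2 (−1.28) and Onecut2 (−0.97) were lower as well. The 2 that rose were Xbp1, of the secretory pathway (0.19), and Zbtb20, a repressor of Afp (0.70). Zbtb20 had a log2 fold change of 0.03 after date adjustment, and scaling to the 75th percentile left 12 lower and 1 higher in this list.

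Metal-response genes were looked at beside Mt1 and Mt2. Of 23 listed, 21 had a row, the metallothioneins included, and 4 were lower and 7 higher by limma (5 and 6 after scaling to the 75th percentile, 3 and 3 after date adjustment). Over all genes tested 21.6% were lower and 21.5% higher (4.54% and 4.24% after date adjustment). Without date adjustment the lower share of this list, 4 of 21, was near that of all genes. The higher share, 7 of 21, and both date-adjusted shares, 3 of 21 each, were above those of all genes. These differences in share were not tested. The 2 lower ones besides Mt1 and Mt2 were Slc30a10, a manganese exporter (−1.84), and Slc39a8, a zinc and manganese importer (−0.74). Mtf1, the metal-sensing factor, was higher by 0.22, and the zinc exporter Slc30a1, a known MTF1 target, by 0.33. The zinc transporter genes Slc30a5 (0.40), Slc39a6 (0.81), Slc39a9 (0.24), Slc39a10 (0.45) and Slc39a14 (0.64) were higher.

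Genes of other cells that a fetal liver sort could hold were lower as well, and their part in these results was not tested. All 24 erythroid genes were lower by limma, with a median log2 fold change of −1.78 (8 lower after date adjustment), and took 0.397% to 1.19% of normalized counts in Mrc1Cre Xpr1fl/fl and 1.65% to 2.50% in Xpr1fl/fl samples. Of 19 endothelial genes 17 were lower, of 18 stellate and mesenchymal genes 14 were lower and 1 higher, of 12 granulocyte genes 5 and of 10 megakaryocyte genes 6 were lower. After date adjustment the lower ones numbered 3 endothelial, 5 stellate and mesenchymal, 5 granulocyte and 1 megakaryocyte gene. Over all genes tested the lower share was 21.6%, and 4.54% after date adjustment. Of 8 biliary genes Spp1 alone had a row, and it did not pass. Only 1 gene of these lists, a megakaryocyte gene, was at 0 in any sample.

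The samples that were high or low for the secreted protein genes were compared with those for these lists, as values with no test. The median ratio of control 4 to the mean of controls 1 to 3 was 1.94 for the secreted protein genes, 1.24 for erythroid, 0.823 for stellate and mesenchymal, 0.606 for endothelial and 0.104 for granulocyte genes. The median ratio of Mrc1Cre Xpr1fl/fl sample 5 to samples 1 to 4 was 1.26 for the secreted protein genes, 1.22 for endothelial, 1.18 for stellate and mesenchymal, 1.76 for erythroid and 3.26 for granulocyte genes. Endothelial, stellate and mesenchymal genes were thus near the secreted protein genes in Mrc1Cre Xpr1fl/fl sample 5 but not in control 4. Summed granulocyte counts were 5176 to 18964 in Mrc1Cre Xpr1fl/fl and 9365 to 56091 in Xpr1fl/fl samples, with the lowest control in sample 4.

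**Figure D4:**
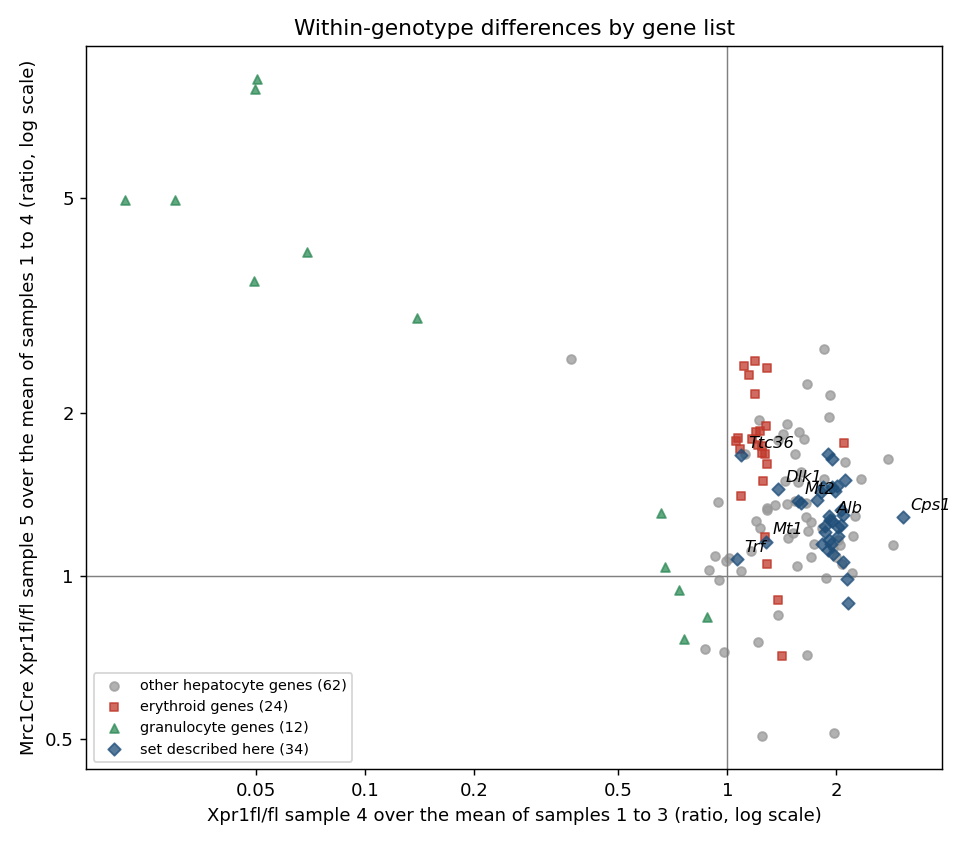
Ratio of Xpr1fl/fl sample 4 to the mean of samples 1 to 3 (horizontal, log scale) against the ratio of Mrc1Cre Xpr1fl/fl sample 5 to the mean of samples 1 to 4 (vertical, log scale), with 1 point for each gene and grey lines at 1. Most of the 34 genes of the set (blue) sit near 1.9 on the horizontal axis, erythroid genes (red) near 1.2, and granulocyte genes (green) at or below 0.9.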

How the data were processed

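FL macrophages were profiled by paired-end RNA-seq from 45 ng of total RNA. Per the labels and methods, the authors checked reads with FastQC, quantified them with salmon on GRCm39, imported them with tximport and normalized them with DESeq2. What the authors deposited is a signal for each gene: its count divided by DESeq2 normalization factors. Tool versions and the filter behind the table are not given in the sources used here. The lowest gene mean was 5.79. Whole reads could not be recovered from low values, so no count test was run, depth is unknown and intervals for single samples were not given.

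Symbols and positions came from GENCODE M39 (GRCm39, 13698 genes named). The genotypes were compared with limma 3.58.1 (R 4.3.3, eBayes with trend). Values were log2-transformed after adding 1, genes needed 10 normalized counts or more in 4 samples or more, with Benjamini-Hochberg adjustment over all genes tested. The test was checked on simulated data with known changes. These data held no date effect and no sample apart from its group, so the check does not cover those features. For ratios, exact permutation tests (two-sided) were used. Promoters were from RefSeq (GRCm38.p6). Lists were described by counts and medians. The set, the lists and the tests were chosen with earlier results of these data known. All genes of the set, Xpr1, the most abundant genes of the other hepatocyte list, and any transcription factor or metal-response gene past the threshold were named, except for some items that are not reported here. Numbers shared by samples of both genotypes did not pair them. Alternatives were other pseudocounts, filters and scalings, no trend, the date, a replicate block and leaving out each sample. Values of the earliest date alone and ratios to Alb were added after seeing the data.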

Additional observations from a re-analysis of the deposited data

Results flagged for a closer look

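In 12 of 78 groups of samples tested, 1 sample stood apart from the others of its genotype by Dixon's criterion. Chance alone gives about 3.9, and the groups share samples, so the flags are not independent. In 10 of these groups it was Xpr1fl/fl sample 4, as the highest control. It had 23242 normalized counts of Afp against 11651 to 12321 in the other 3 controls, 865 of Rbp4 against 439 to 508, and 335 of Hpx against 150 to 167. It had 1092 of Ambp against 513 to 563, 398 of Apom against 237 to 261, and 1612 of Itih2 against 774 to 906. For Fgb it had 1280.45 against 553 to 651, for Serpina1b 2053 against 985 to 1134, and for Serpinf2 1093 against 534 to 599. Summed over the secreted protein genes without Trf it had 84038 against 40998 to 46077. Xpr1fl/fl sample 2 was the lowest control for Trf, at 27161 against 36807 to 38738. Mrc1Cre Xpr1fl/fl sample 2 was the lowest of its genotype for Cps1, at 6.03 against 15.4 to 17.8.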

How the results depend on the processing

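With the date as a term, 3 genes of the set and 7 of the other hepatocyte genes were lower past the threshold, against 33 and 49 without it, and the median log2 fold change of the set was −0.55 in place of −1.07. The date and the genotype overlap in 4 samples only, so they cannot be fully told apart. Quantile normalization left 32 other hepatocyte genes lower. Leaving out 1 sample at a time gave 33 to 34 lower genes of the set, 37 to 47 lower other hepatocyte genes, and a median of −1.19 to −0.85. The log2 difference of the Alb to Afp ratio lay between −0.0527 and 0.0542 when 1 sample was left out, with a changed sign without Mrc1Cre Xpr1fl/fl sample 2 (0.0148) and without Xpr1fl/fl sample 3 (0.0542), and it was 0.109 within the earliest date. That of Mt1 and Mt2 over Alb lay between 0.0382 and 0.246, and was −0.0177 within the earliest date. Neither ratio passed the threshold with all samples. Among single genes, 30 lost their call with the date as a term and 1 with quantile normalization, and Cps1 gained it without Xpr1fl/fl sample 2. The stricter filter, at least 50 normalized counts, kept 32 genes of the set. Samples with the same number did not deviate together: the correlations of their deviations were −0.035, 0.147, −0.003 and −0.024, and 3 of 8 samples correlated best with the sample of their own number. With the replicate number as a block, 33 genes of the set and 50 other hepatocyte genes were lower, the median was −1.12, and the log2 differences of the ratios were −0.0411 and 0.168. The other pseudocounts, no filter, no trend and scaling to the 75th percentile left 33 genes of the set lower. Low values limit Cps1 and Ttc36 most.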
